A study of Mus musculus with 3 samples.

Results

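GLI3 binding around 6 genes for zinc-finger transcription factors, Sall1, Sall2, Sall3, Sall4, Osr1 and Osr2, was examined in mouse forelimb buds. Of the 17149 peaks in the deposited GLI3 list, 103 had their summit within 500 kb of an annotated transcription start site (TSS) of one of these genes, and each peak was given to the nearest of the 6. No enrichment value entered this choice. Peaks with a false discovery rate (FDR) under 0.05 were called GLI3 binding regions: 41 of the 103, or 39.8% (95% Wilson interval 30.9 to 49.5), against a background of 42.5% over the whole list. The share that passed was thus close to that of the list, and all 6 genes had at least 4 binding regions in reach.

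The list came from FLAG chromatin immunoprecipitation and sequencing (ChIP-seq) of forelimb buds at embryonic day E10.5 (32 to 35 somites), with 2 ChIP replicates and 1 input library of chromatin without immunoprecipitation. Each library was made from 2 litters of limb buds on a mixed strain background. The series describes mice whose endogenous Gli3 gene carries a FLAG tag, while the genotype label of every sample reads wild type, and no untagged or Gli3 mutant library enters the comparison. The list was treated as covering both replicates jointly and holds no value per replicate, no read totals and no expression, so no difference could be compared with replicate error, no test was made, and the labelled tissue could not be checked against its marker genes. Litters were pooled and whole limb buds were used, so the cells in which GLI3 was bound cannot be told apart.

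GLI3 is a zinc-finger transcription factor through which Hedgehog (HH) signaling acts, and in the limb it works mainly as a repressor that patterns the bud from anterior to posterior. SALL proteins are the vertebrate relatives of Drosophila spalt, large nuclear factors with paired C2H2 zinc fingers. SALL1 is needed for kidney and SALL4 for limb development, and their human genes are mutated in Townes-Brocks and Duane-radial ray syndromes. SALL3 is a close relative of SALL1 with roles in palate and cranial nerve formation, and SALL2 is the most divergent member, linked to eye development. OSR1 and OSR2, the odd-skipped-related factors, mark lateral plate and intermediate mesoderm. OSR1 is required for heart and kidney formation, OSR2 for the palate, and both act in joint formation.

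The DNA under the regions on which the following account turns is shown first, as 121 bases of the mm10 assembly (GRCm38.p6), 5′ to 3′, in lower case. Capitals mark the best match to the GLI consensus GACCACCCA (reverse complement TGGGTGGTC), searched on both strands in the window reaching 250 bp to each side of a summit and allowing at most 1 mismatch. A match is a likeness of letters and not a shown binding site. Substitutions are written with the consensus base, the position counted from 1 at the 5′ end of the consensus, and the base found. Near Sall1 the highest-ranked region of all 6 neighbourhoods held no match, while a region on the same side of the gene held C6T and a listed peak beside it, with an FDR above the threshold, held the exact consensus.
Sall1, 454.1 kb upstream, rank 213 (chr8:89498177-89498297, plus strand): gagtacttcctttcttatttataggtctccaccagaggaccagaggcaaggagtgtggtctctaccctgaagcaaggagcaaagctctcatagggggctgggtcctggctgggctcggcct
Sall1, 338.6 kb upstream, rank 1040, C6T (chr8:89382569-89382689, minus strand): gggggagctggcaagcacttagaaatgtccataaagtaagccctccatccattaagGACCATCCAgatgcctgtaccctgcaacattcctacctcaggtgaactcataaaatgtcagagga
Sall1, same cluster, rank 8922, exact (chr8:89384184-89384304, minus strand): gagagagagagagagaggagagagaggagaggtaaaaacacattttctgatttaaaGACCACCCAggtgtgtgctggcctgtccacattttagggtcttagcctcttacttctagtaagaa

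Near the Osr genes, 3 regions held a match within 50 bp of the summit. The match in Osr1 fell in coding sequence of the gene and carried C8T. Of the 3 far regions of each gene, 1 at Osr1 carried A9T, 1 at Osr2 carried A5C, and the other 4 held no match.
Osr1, inside the gene, rank 4102, C8T (chr12:9579762-9579882, plus strand): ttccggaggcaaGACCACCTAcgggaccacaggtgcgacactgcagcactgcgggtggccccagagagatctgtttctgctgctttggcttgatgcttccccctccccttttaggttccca
Osr1, 474.0 kb downstream, rank 4838, A9T (chr12:10048468-10048588, plus strand): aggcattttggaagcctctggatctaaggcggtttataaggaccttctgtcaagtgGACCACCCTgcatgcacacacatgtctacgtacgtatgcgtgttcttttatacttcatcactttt
Osr2, 466.6 kb upstream, rank 4810, A5C (chr15:34829397-34829517, plus strand): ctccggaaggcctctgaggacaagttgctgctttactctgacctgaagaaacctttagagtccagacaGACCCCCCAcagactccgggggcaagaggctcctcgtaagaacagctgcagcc

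The best region at Sall4, the far region of Osr2 with the highest enrichment and the AT-rich region just before Osr2 are shown as examples without a match.
Sall4, 1677 bp past the TSS, rank 785 (chr2:168765292-168765412, plus strand): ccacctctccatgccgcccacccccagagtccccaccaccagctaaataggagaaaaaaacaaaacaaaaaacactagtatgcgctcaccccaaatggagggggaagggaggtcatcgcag
Osr2, 448.3 kb downstream in Vps13b, rank 1517 (chr15:35748542-35748662, plus strand): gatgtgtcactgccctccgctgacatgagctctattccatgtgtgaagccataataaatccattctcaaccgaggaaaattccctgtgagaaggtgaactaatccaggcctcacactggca
Osr2, 571 bp before the TSS, rank 7010 (chr15:35295467-35295587, plus strand): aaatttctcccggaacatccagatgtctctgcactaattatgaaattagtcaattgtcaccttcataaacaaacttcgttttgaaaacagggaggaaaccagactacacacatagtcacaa

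Binding regions were unevenly shared among the 6 genes and among shells of distance that differ in width. Sall3 had 14 binding regions among 29 listed peaks. Sall1, Sall4 and Osr2 had 6 each, among 17, 21 and 19 listed peaks, Sall2 had 5 of 9 and Osr1 had 4 of 8. By distance, 8 of the 41 regions overlapped a promoter window of their gene, which runs from 2 kb before to 1 kb after a TSS, another 7 lay within 100 kb, and 26 lay between 100 and 500 kb. The last shell is also by far the widest. Counted together, 15 of the 41 lay within 100 kb. Regions around protein-coding genes in general also lay mostly beyond 100 kb, with means per gene of 1.21 within 100 kb and 5.05 within 500 kb. The share of listed peaks that passed the threshold was 8 of 14 at the promoters, 7 of 23 in the shell out to 100 kb and 26 of 66 beyond it. In the whole list 46.5% of promoter peaks and 38.8% of the others passed. Sall3, Osr2, Sall1 and Sall4 had promoter regions (3, 3, 1 and 1), and Sall2 and Osr1 had no listed promoter peak at all. Over all 21938 protein-coding genes, 17.2% had a binding region at a promoter, 2.13% had at least 2 and 0.351% had at least 3, and Sall3 and Osr2 were in that class. This count did not hold under other settings: with peaks less than 1 kb apart counted as 1, Sall3 and Osr2 had 1 promoter region each, and at an FDR under 0.01 they had 2 and 0.

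**Figure D1:**
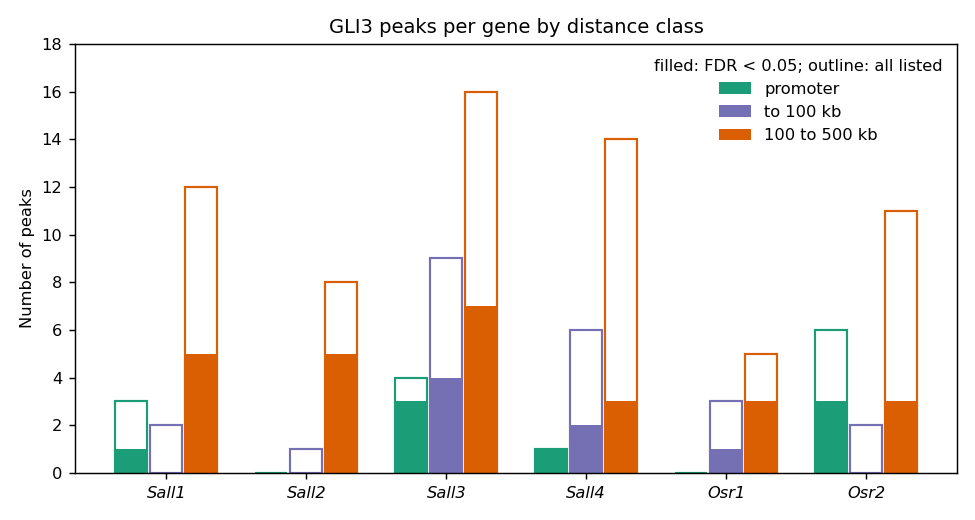
Number of GLI3 peaks for each gene (x axis) by distance class, with all listed peaks as outlines and those with an FDR under 0.05 filled. The filled promoter bars reach 3 for Sall3 and Osr2, 1 for Sall1 and Sall4 and 0 for Sall2 and Osr1, and Sall3 has the tallest filled bars in every class, level with Osr2 at the promoter.

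Within 100 kb of a TSS, Sall3 had 7 binding regions, more than 98.3% of protein-coding genes. Sall4 and Osr2 had 3 each, more than 83.4% of genes, and the 3 of Osr2 were its promoter regions. With peaks less than 1 kb apart counted as 1 the counts of Sall3, Sall4 and Osr2 were 5, 2 and 1, and at an FDR under 0.01 they were 4, 2 and 0. Counting each peak, Sall1 and Osr1 had 1, the median over all genes, and Sall2 had 0. A binding region within 100 kb was common in general, with 52.2% of genes having one, so the presence of a region near 5 of the 6 genes sets them apart little. Within 500 kb, where 83.2% of genes had a region, only Sall3 stood high, with 14 regions against a median of 4 and more than 93.7% of genes. The other 5 had 4 to 6. Neighbouring genes share the same regions in these counts.

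**Figure D2:**
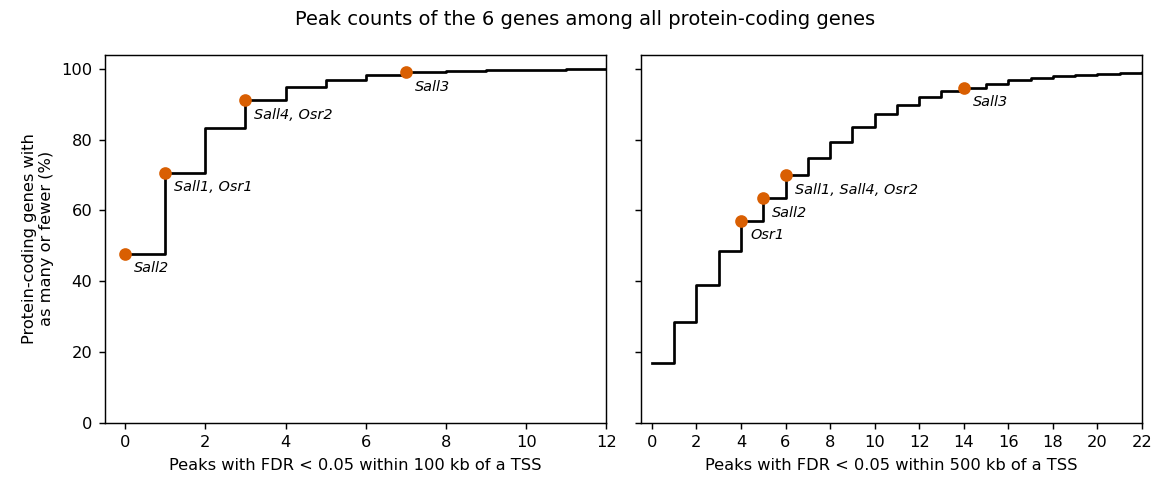
Cumulative share of the 21938 protein-coding genes (y axis, percent) with a given number or fewer of binding regions within 100 kb (left) and 500 kb (right) of a TSS. The 6 genes are marked by points. Sall3 lies near the top of both curves with 7 and 14 regions, and Sall2 lies at 0 in the left panel.

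The genes sit in very different surroundings, and positions are given on mm10. Osr1 had no other protein-coding TSS within 500 kb, its nearest being Ttc32 at 544.4 kb and Nt5c1b at 795.5 kb. Sall3 had 2 such neighbours, Osr2 had 3, Sall1 and Sall4 had 4 each and Sall2 had 24. The member itself was the gene with the nearest TSS for 18 of the 41 regions, and for 23 regions no other protein-coding TSS lay between region and member. Among the 103 listed peaks these counts were 44 and 53. Like counts around other genes were not made, so none of these can be called high or low. In all, 16 of the 41 regions (39.0%, 25.7 to 54.3) overlapped a promoter of some protein-coding gene, against 52.6% of all binding regions, and 8 of these 16 were at promoters of other genes. The threshold was passed by 16 of the 32 listed peaks at promoters of any gene and by 25 of the 71 outside them, near the list's 46.5% and 38.8% for the same classes. Of the 41 regions 29 were downstream and 12 upstream, and of the 103 listed peaks 62 and 41. Sall3, with 10 downstream and 4 upstream, and Sall2, with all 5 downstream at promoters of other genes, made up most of that difference. The density of binding regions was 6.81 per Mb over the 6 neighbourhoods and 2.67 per Mb over the whole assembly, gaps included, and ran from 4 per Mb at Osr1 to 14 at Sall3. The neighbourhoods were set around genes while the assembly includes gene deserts. A closer comparison is the number of regions within 500 kb of a TSS, a window of about 1 Mb. Its mean over all protein-coding genes was 5.05 and its median 4, against 14 for Sall3 and 4 to 6 for the other members. The part of gene-centring in the difference from the assembly was not tested.

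**Figure D3:**
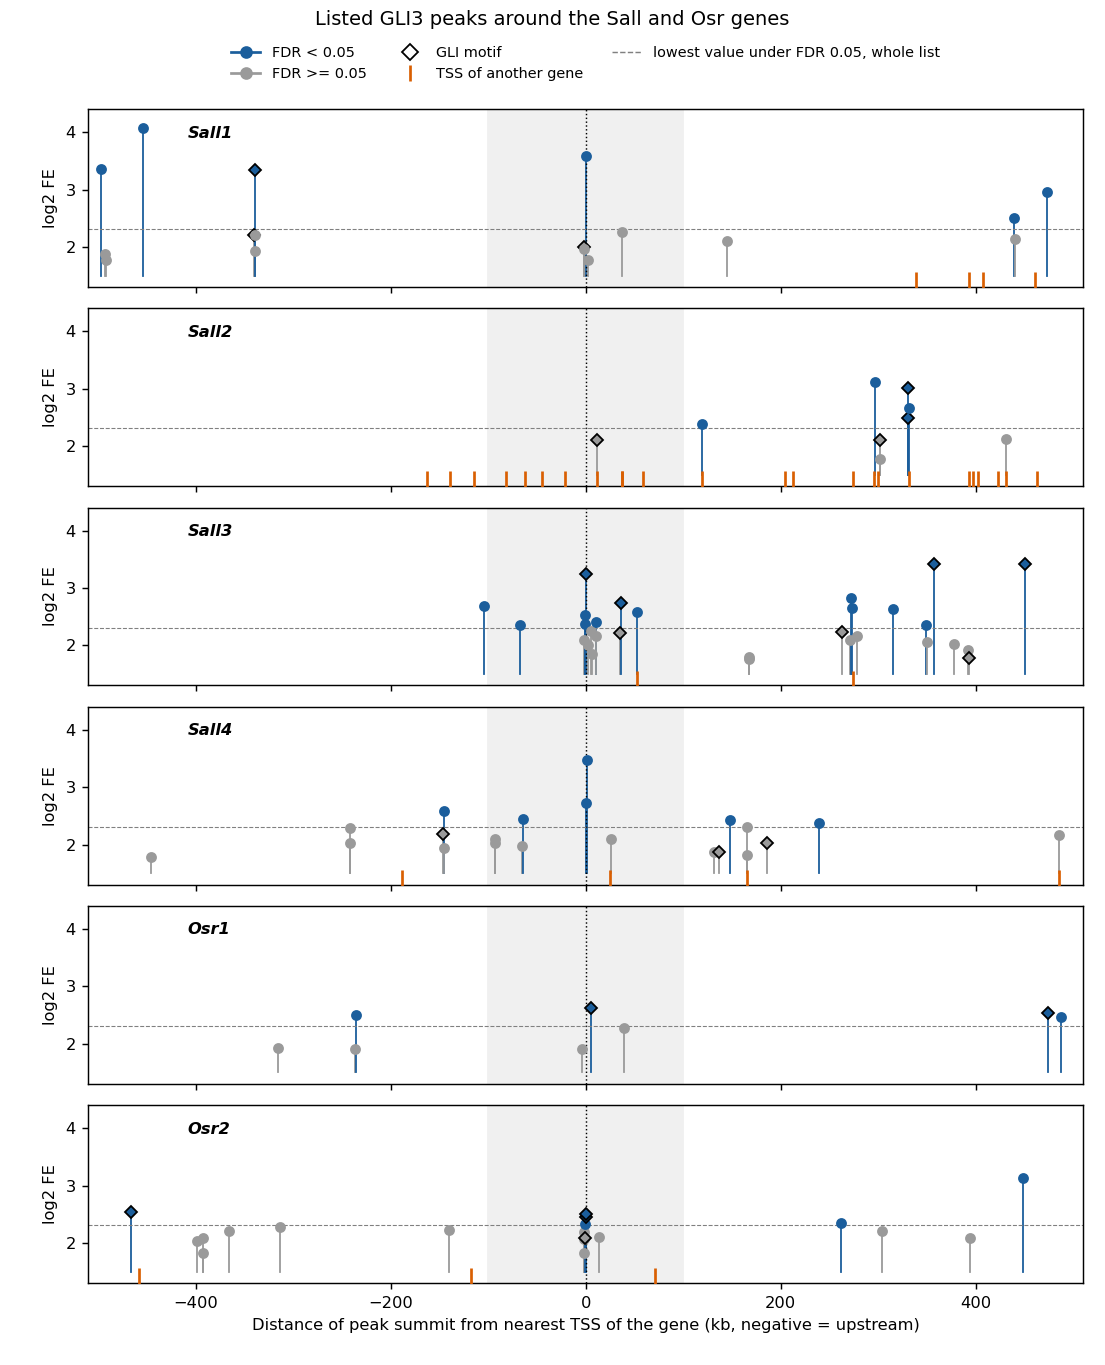
Listed peaks around each gene by distance of the summit from the nearest TSS (x axis, kb, negative values upstream) and largest log2 fold enrichment (y axis, log2 FE). Blue marks an FDR under 0.05 and grey the rest, diamonds hold a GLI motif, orange ticks are TSSs of other protein-coding genes, and the grey band spans 100 kb on each side. Sall1 has its 3 strongest regions other than the promoter more than 300 kb upstream, and the Sall2 regions lie over orange ticks.

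Enrichment at these genes was close to that of the list. The log2 fold enrichment of ChIP over input, taken by the caller as the largest value within a peak, had a median of 2.58 over the 41 regions (order-statistic 95% interval 2.50 to 2.74) and 2.69 over all binding regions. It ran from 2.33 to 4.07. Over all listed peaks the medians were 2.2 for the 103 and 2.23 for the list. Of the 41 regions, 31.7% had an FDR of 0 as listed, against 41.9% of all binding regions, and 5 ranked in the highest 1000, where 13.7% of all binding regions fall. Those 5 were 2 regions of Sall1, 2 of Sall3 and 1 of Sall4. Sall1 had the highest median among the genes, 3.34 over 6 regions, and the others followed at 2.67 for Sall2, 2.64 for Sall3, 2.52 for Sall4, 2.51 for Osr1 and 2.47 for Osr2. Over all listed peaks the order differed, with medians of 2.38 for Sall2, 2.37 for Osr1, 2.25 for Sall3, 2.2 for both Sall1 and Osr2 and 2.1 for Sall4. The ranges of the 6 genes overlapped, and the values of Osr1 were the narrowest, from 2.47 to 2.63.

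**Figure D4:**
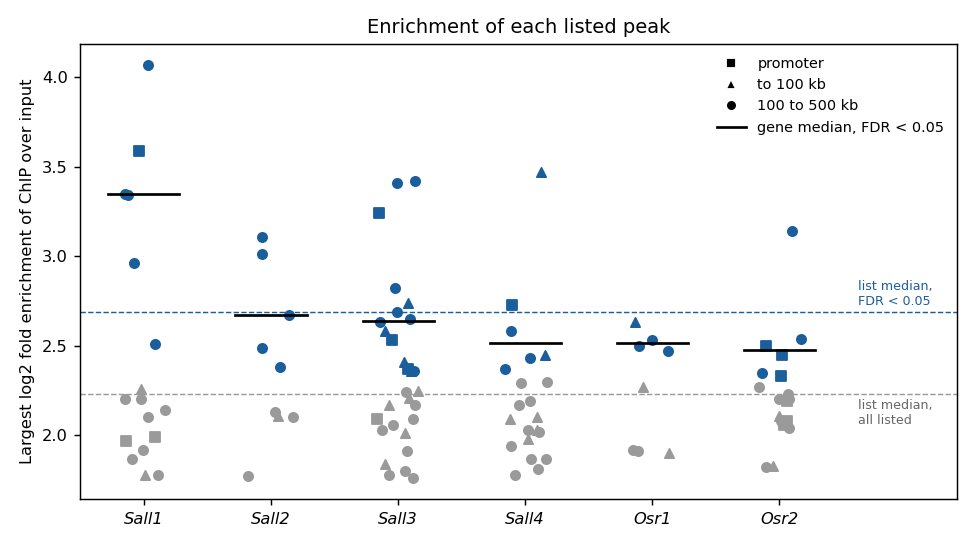
Log2 enrichment of ChIP over input at its maximum within the peak (y axis) for each listed peak, by gene (x axis). Blue points have an FDR under 0.05 and grey points do not, squares, triangles and circles give the distance class, short black lines are the medians of the blue points, and dashed lines are the medians of the whole list, 2.69 under the threshold and 2.23 over all listed peaks. Points of 4.07 for Sall1 and 3.47 for Sall4 are the highest of their genes.

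Sall1, a regulator of kidney progenitors, lies on chromosome 8 from 89027235 to 89044162 on the minus strand. Its promoter region ran from 89042300 to 89044649, covered 2350 bp from before the TSS into an intron, and was the longest of the 41. Its log2 fold enrichment was 3.59 at rank 625, with an FDR of 0, and its window held no GLI motif. Both other promoter peaks, centred 1325 and 2055 bp before the TSS, had values of 1.97 and 1.99 and FDRs of 0.727 and 0.461. No further peak within 100 kb passed the threshold, and the best, 37.5 kb downstream at rank 8139, had a value of 2.26 and an FDR of 0.0709.

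The strongest region of all 6 neighbourhoods lay far upstream of Sall1, in the gap of 1304.2 kb between its TSS and that of Tox3. It ran from 89498000 to 89498549, 454.1 kb upstream, with a log2 fold enrichment of 4.07, rank 213, an FDR of 0 and a −log10 Poisson p-value of 85.2. The same gap held a region at 89541300 to 89541749 with a value of 3.35, 497.2 kb upstream, and a region at 89382600 to 89383099 with a value of 3.34, 338.6 kb upstream. Thus 3 of the 6 Sall1 regions lay in sequence without annotated protein-coding genes and exceeded the list median of 2.69. The third was the best of 4 listed peaks spanning 1700 bp, and the other 3 had FDRs of 0.133, 0.133 and 0.782. Its own window held GACCATCCA, 173 bp from the summit. The exact GACCACCCA shown above lay at 89384240 to 89384248, 92 bp from the summit of the peak ranked 8922 and 1442 bp from that of the region. On the other side, regions of 2.96 and 2.51 lay 473.4 and 439.6 kb downstream, at and beside Nkd1, which encodes a Wnt pathway inhibitor. The TSSs of Cyld, Nod2 and Snx20 also lay on that side, the nearest at 338.9 kb.

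Sall2, on chromosome 14 from 52311172 to 52328762, was the only one of the 6 genes without a binding region within 100 kb. Its nearest listed peak lay 11386 bp downstream, at the promoter of Mettl3, an RNA methyltransferase gene, with a value of 2.11 and an FDR of 0.234. All 5 binding regions lay between 119.0 and 331.6 kb downstream and each overlapped the promoter of another gene. The best, at 52019550 to 52020549, was at Zfp219 and had a value of 3.11 at rank 1623 with an FDR of 0 and no motif. A region at Supt16, which encodes a histone chaperone subunit, reached 2.38. The remaining 3 were at the promoter of Arhgef40, a guanine nucleotide exchange factor gene, with values of 3.01, 2.67 and 2.49. In 2 of these 3, the window held GCCCACCCA (A2C), at different positions.

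Sall3, on chromosome 18 from 80966376 to 80986771 on the minus strand, had the most binding regions of the 6. Its 3 promoter regions lay within 1650 bp. The one inside the gene, 394 bp past the TSS at 80986200 to 80986749, had a log2 fold enrichment of 3.24 at rank 1250, an FDR of 0 and a motif with 1 mismatch 32 bp from its summit. Those 191 and 546 bp before the TSS had values of 2.53 and 2.37, with FDRs of 0.00705 and 0.0374. All 3 windows were GC-rich, at 72.1 to 79.8%, against a median of 65.7% over all binding regions at promoters. Closely spaced regions may be parts of 1 stretch of signal that the caller divided, and counting peaks less than 1 kb apart as 1 left 4 promoter regions in place of 8 over the 6 genes.

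Out to 100 kb, Sall3 had 4 further regions. An intronic region 10.8 kb past the TSS had a value of 2.41 and an FDR of 0.0208. A region 35.9 kb downstream had a value of 2.74, an FDR of 0.00113 and a motif with 1 mismatch 63 bp from its summit. A region 67.6 kb upstream reached 2.36 with an FDR of 0.0374. The last lay at the promoter of Atp9b, 52.7 kb downstream, with 2.58 and an FDR of 0.00704. Atp9b encodes a phospholipid-transporting ATPase. Beyond 100 kb the values were 2.36 to 3.42 over 7 regions, of which 6 were downstream. The strongest were an intergenic region 450.9 kb downstream at 80535700 to 80536149, with 3.42 at rank 874, and an intronic region of Nfatc1, a calcium-regulated transcription factor gene, at 80628800 to 80629299 with 3.41 at rank 914. Both windows held a motif with 1 mismatch, and 5 of the 7 were at or in Nfatc1. The single upstream region of this shell had a value of 2.69, although the nearest protein-coding TSS on that side, that of Galr1, was 1420.0 kb away.

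Sall4, which acts in early limb and stem cells, lies on chromosome 2 from 168748332 to 168767943 on the minus strand. A pair of regions lay side by side over the start of the gene. The region at 168766000 to 168767249, centred 582 bp past the TSS, had a value of 2.73 and an FDR of 0.00113. The region at 168765050 to 168765899, centred 1677 bp past the TSS in an intron and so just outside the promoter window, was stronger, with 3.47 at rank 785 and an FDR of 0. The third region within 100 kb lay 64.7 kb upstream, with 2.45 and an FDR of 0.0208. Beyond 100 kb, 3 regions had values of 2.37 to 2.58, of which 2.58 was in an intron of Zfp64, a zinc-finger gene, 145.7 kb upstream. None of the 6 windows held a GLI motif, which allows a share of up to 50% (3 counts of the total).

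The neighbours of Sall4 are relatives of those of Sall3, in the same order: Atp9a at 24.9 kb and Nfatc2 downstream of Sall4, and Atp9b and Nfatc1 downstream of Sall3. The promoter of Atp9a had a peak of 2.09 with an FDR of 0.251 and that of Nfatc2 had peaks of 2.30 and 1.81 with FDRs of 0.0704 and 1. The promoter of Atp9b had a region of 2.58 and that of Nfatc1 had regions of 2.82 and 2.65, beside a peak 41 bp past a TSS with 2.17 and an FDR of 0.148. Downstream of the gene's TSS there were 10 regions for Sall3 and 4 for Sall4.

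Osr1, on chromosome 12 from 9570116 to 9581500 on the plus strand, had 8 listed peaks, the fewest of the 6, and none at its promoter. Its only binding region within 100 kb was inside the gene at 9579700 to 9579899, 5381 bp past the TSS, with a value of 2.63 and an FDR of 0.00455. The summit lay in the intron, 29 bp past the end of exon 2 of 3, and the motif GACCACCTA lay 44 bp from it, at 9579774 to 9579782, in coding sequence. The remaining 3 regions were intergenic. A region 235.4 kb upstream at 9338850 to 9339399 had a value of 2.50, and regions 474.0 and 487.8 kb downstream, at 10048400 to 10048649 and 10061950 to 10062299, had 2.53 and 2.47. The nearer of these held GACCACCCT 46 bp from its summit. All 4 regions therefore lay outside every protein-coding promoter window, the reverse of Sall2. A peak 38.9 kb downstream, with a value of 2.27 and an FDR of 0.0704, fell just short of the threshold.

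Osr2, on chromosome 15 from 35296098 to 35303305 on the plus strand, had 6 listed promoter peaks around its 2 annotated TSSs, more than 99.9% of protein-coding genes, of which 3 passed. With peaks less than 1 kb apart counted as 1, the 6 became 2 and the 3 became 1. The 3 that passed lay within 1500 bp and were modest, at 2.33 for 35295400 to 35295849, 571 bp before the TSS, 2.45 for 35296000 to 35296349, and 2.50 for 35296650 to 35296899, with FDRs of 0.0374, 0.0208 and 0.0114. None passed an FDR of 0.01. The windows of the latter 2 shared a single motif, GAGCACCCA (C3G) at 35296521 to 35296529 in an intron, 178 and 187 bp from the summits. Base composition shifted over this short stretch, from 38.3% GC before the TSS to 62.7% and 55.7% after it.

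In the shell out to 100 kb no Osr2 peak passed, and the better of 2, 13192 bp downstream in the noncoding gene BC048602, had a value of 2.11 and an FDR of 0.234. The other 3 Osr2 regions were far. The strongest, at 35748400 to 35748849 and 448.3 kb downstream, had a value of 3.14 at rank 1517 with an FDR of 0, in an intron of Vps13b, a gene for a Golgi protein. Another intron of Vps13b held a region of 2.35, 261.5 kb downstream. The region 466.6 kb upstream at 34829250 to 34829549, 7898 bp from the TSS of the potassium channel gene Kcns2, had a value of 2.54 and the motif GACCCCCCA 12 bp from its summit, the closest of the regions described here.

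Over the 41 regions, 12 windows held a GLI motif with at most 1 mismatch, or 29.3% (17.6 to 44.5), against 20.8% of all binding regions. That interval includes the share over the list. Within 100 bp of the summit the shares were 14.6% and 11.6%. The matches nearest to the 12 summits lay at 11 different positions, since 1 was shared by a pair of windows. In 3 of the 12, both Osr2 promoter windows and 1 at Arhgef40, the match lay outside the listed peak itself. Motifs were found in the windows of 7 of the 25 regions outside promoters (28.0%, against 24.1% of the list's distal regions) and in 5 of the 16 at promoters (31.2%, against 17.9%). By gene the counts were 4 of 14 for Sall3, 3 of 6 for Osr2, 2 of 5 for Sall2, 2 of 4 for Osr1, 1 of 6 for Sall1 and 0 of 6 for Sall4. Only 4 matches were within 50 bp of a summit, 2 of them at Osr1, 1 at Osr2 and 1 at Sall3. The exact consensus was in 0 of the 41 windows, which allows a share of up to 7.32% by the same rule, and in 2 of the 103, against 2.84% of all binding regions and 2.17% of the list. For comparison, the 300 bases of RefSeq promoter sequence held a motif in 6.74% of 32851 promoters, in a shorter window.

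The regions had a lower GC content than the list, with a median of 54.5% against 58.7%, and the CpG content relative to expectation was 0.42 against 0.62. Their median distance to the nearest protein-coding TSS was 12068 bp against 1076 bp. These medians depend on the share at promoters, 39.0% (25.7 to 54.3) here and 52.6% in the list, and that interval includes the list's share. In the list, regions at promoters had medians of 121 bp, 65.7% GC and 0.83 for CpG, and those outside had 45458 bp, 50.3% and 0.29. A difference within either class was not tested. Across the genes, median GC was highest for Sall2, at 66.3%, where all regions were at promoters, and lowest for Osr2 at 44.8%, with 3 of 6 at promoters, and for Osr1 at 45.8%, with 0 of 4. Sall4, with 1 of 6 at promoters, had 56.8%. Median length was 450 bp against 400 bp over all binding regions. The summit lay in repeat sequence in 3 of 41 regions (7.32%, against 8.95%).

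**Figure D5:**
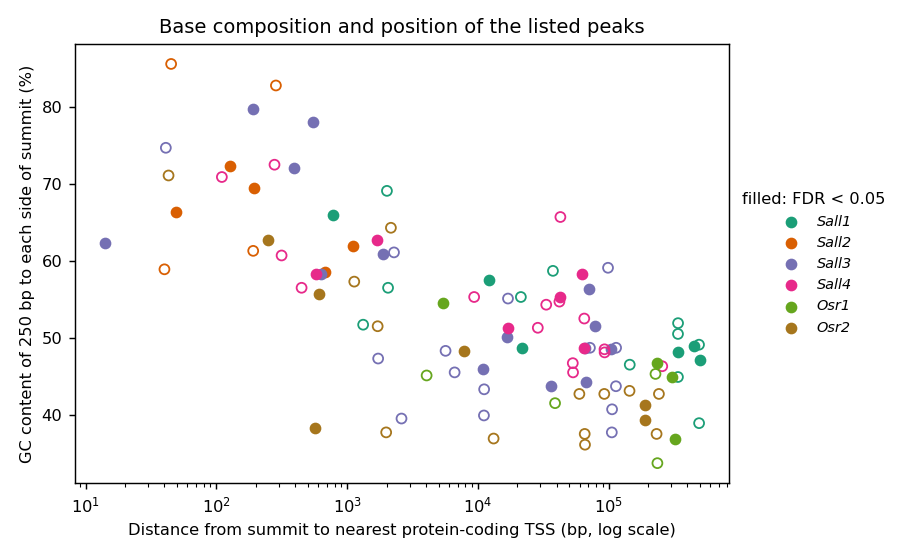
GC content within 250 bp to each side of each listed summit (y axis, percent) against its distance from the nearest protein-coding TSS (x axis, bp, log scale), with 1 color per gene and filled points for an FDR under 0.05. GC is highest close to a TSS, and the filled Osr2 point at 571 bp, with 38.3% GC, lies apart from the other filled points near TSSs.

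A list of 12 genes that work with these factors in limb or kidney was also surveyed. It was picked by hand with earlier results of these data known, so its shares describe the list and do not test for an excess. All 12 had a binding region within 100 kb, against 52.2% of protein-coding genes and 5 of the 6 Sall and Osr genes, and 7 of the 12 had one at the promoter, against 17.2%. Of the 7 limb genes (Tbx5, Fgf10, Irx3, Irx5, Zbtb16, Hand2 and Hoxd13), 5 had a promoter region, and of the 5 kidney genes (Wt1, Pax2, Six2, Eya1 and Lhx1), 2 did. Hoxd13, in the HoxD cluster, had 26 regions within 100 kb, with a best value of 4.31. Irx5 had 7, as many as Sall3, with a best value of 2.76. Irx3 and Zbtb16, which encodes a limb zinc-finger repressor, had 5 each with best values of 3.72 and 3.37. At the low end, Wt1, Eya1 and Lhx1 had 1 each, the median over all genes, with values of 2.38, 2.71 and 2.83.

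Just inside the limit of 500 kb was the Sall1 region 497215 bp upstream with a value of 3.35. Just outside were a peak 515526 bp from Sall4 with 2.06 and an FDR of 0.438, and one 517009 bp from Sall3 with 2.33 and an FDR of 0.0374. A region 536762 bp from Sall4 had a value of 2.49 and an FDR of 0.0114. A region with a value of 4.15 at rank 167 lay 544379 bp from Osr1, at the start of Ttc32.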

How the data were processed

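Limb bud chromatin of E10.5 forelimbs was studied in 2 GLI3 ChIP libraries and 1 input library, each made with 15 PCR cycles. Per the labels, mm10 and Bowtie2 2.2.5 were used, with no role given, and the study names CisGenome 2.1.0 for peak calling from both replicates. The list is attached to ChIP replicate 1 and was treated as the joint call. For each peak the deposited list gives an FDR (a q-value), the log2 fold enrichment over input (the maximum within the peak), a T score that sets the rank, and a Poisson p-value as −log10, all computed by the authors. The study states a lower bound on reads per library, and exact totals are not part of the list. The list has no value per replicate, so a region carried by 1 replicate cannot be told from one found in both.

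From these values peaks were assigned and counted in Python 3.11.15 with pandas 2.3.3 and pysam 0.24.0, using GENCODE M21 basic transcripts of protein-coding genes on GRCm38.p6. No peak end lay beyond its chromosome, and 5 peaks on unplaced sequence were left out where a position was needed. Motifs, GC and CpG were read from 250 bp to each side of the summit. No test was made. Wilson 95% intervals cover counting error only, and peaks are not independent replicates. Counting was tested on simulated data.

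The 6 genes and the gene lists were chosen with earlier results of these data known. By rule the text names, for each gene, the best peak of each distance class and every region within 100 kb, and of the partner genes those with the most regions. Other peaks, and the partner genes with the fewest regions, were named after their values were seen. Alternatives changed the FDR threshold, TSS set, promoter window, motif and its window, and left out each gene.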

Additional observations from a re-analysis of the deposited data

How the results depend on the processing

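The 8 summary values were recomputed under 40 alternatives and stayed within tolerance in 29 (counts within 1.5 times, shares and the median within their 95% interval). Some of these could hardly move. Leaving out 1 gene keeps most of the peaks that set the interval, and using the gene 5′ end as TSS returned the same counts. The tally is therefore not a measure of robustness. At an FDR under 0.01 the regions fell from 41 to 25 within 500 kb, from 15 to 8 within 100 kb and from 8 to 4 at promoters (the first keeps 61%, against 68.1% over all binding regions), and the median log2 fold enrichment was 2.82. Over every listed peak that median was 2.2. Keeping only peaks whose nearest protein-coding TSS was that of one of the 6 genes left 44 listed peaks and 18 regions. Counting peaks less than 1 kb apart as 1, an alternative chosen after seeing the data, left 68 listed peaks, 34 regions and 4 promoter regions, 1 each for Sall1, Sall3, Sall4 and Osr2. The motif share was 0% for the exact consensus and 14.6% within 100 bp to each side of the summit, against 11.6% over all binding regions. Leaving out each gene in turn moved the share under the FDR threshold between 36.5% and 42.7% and the median between 2.54 and 2.63. No paired analysis was possible because no value per replicate is given and no result comes from a test, and no replicate could be left out. Exact read totals were not used here, and a gene without a listed peak was only without one at this depth.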
